A study of Homo sapiens with 208 samples.

Results

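The late response of PC9 cells to gefitinib was described from 22 arrays, namely the hourly samples from 14 to 24 h of the untreated course and of the gefitinib course, with 11 arrays a side, out of a series of 8 courses with 26 arrays each. The samples were chosen by their labels alone (line, treatment and time), and each gefitinib array was set against the untreated array of the same hour. PC9 is a human lung adenocarcinoma line that carries an activating deletion in the kinase domain of EGFR and is sensitive to gefitinib, and all the cells had been starved of serum for 48 h. The gefitinib cells received 0.5 μM gefitinib before the 0 h sample, which the labels spell gefinitib, and the untreated cells received neither gefitinib nor EGF. Both courses ran alongside a course with 100 ng/ml EGF given at 0 h and a course with EGF and gefitinib, and the same 4 treatments were applied to PC9GRM2, a gefitinib-resistant line that is 1 clone selected from PC9 under the drug. Each course had 26 time points and 1 array per time point, so the time points stand in for replicates here, and the p-values measure only the spread between these samples, which may be technical.

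EGFR, the receptor for EGF, is a tyrosine kinase of the ERBB family, which signals through RAS, RAF, MEK and ERK to immediate early genes and to genes that restrain ERK in turn. The other main arm runs through PI3K and AKT, which hold the FOXO transcription factors out of the nucleus, so that FOXO targets are transcribed when AKT activity is low. Gefitinib occupies the ATP site of the EGFR kinase, and lung cells with an activated EGFR are known to leave the cell cycle in G1 and to die by the mitochondrial route when the receptor is inhibited. Values here are log2 of the quantile-normalized signal, and a difference is gefitinib minus no treatment on that scale, so that 1 unit is a 2-fold change.

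Promoter sequences are shown first for genes of the DNA replication and mitosis lists and for ERBB2. RefSeq promoters on GRCh38.p14, from 250 bases before to 50 bases after the start of the transcript, were available for 35 of the 42 tested DNA replication genes and 28 of the 33 tested mitosis genes. Each was searched on both strands for an E2F-type motif (TTCCCGC or TTGGCGC), a CHR-type motif (TTTGAA) and CCAAT. The E2F-type letters were in 27 of 44 promoters of the DNA replication genes (61.4%) in 9.23% of all 35116 promoters and in 13.1% of the promoters of tested genes. The CHR-type letters, the element by which the DREAM and MuvB complexes are known to reach late cell cycle genes, were in 22 of 35 promoters of the mitosis genes (62.9%), in 15.2% of all promoters and in 10.8% of those of tested genes. CCAAT, which NF-Y binds, was in 59.1% of the former and 77.1% of the latter, against 34.6% of all and 34.7% of those of tested genes. Capitals mark the matched letters on either strand, and overlapping matches form 1 run. RRM2 (chr2:10122489-10122788, plus strand) and MCM10 (chr10:13161308-13161607, plus strand) are printed as the replication genes that fell the most, GINS2 (chr16:85688905-85689204, minus strand) for its E2F-type match, chosen after the matches were seen, and MAD2L1 (chr4:120066799-120067098, minus strand) and ECT2 (chr3:172750476-172750775, plus strand) as the mitosis genes that fell the most. RRM2 and ECT2 each have 2 promoters in the table, of which 1 is shown. A match is a description of the letters and not a bound site.
RRM2: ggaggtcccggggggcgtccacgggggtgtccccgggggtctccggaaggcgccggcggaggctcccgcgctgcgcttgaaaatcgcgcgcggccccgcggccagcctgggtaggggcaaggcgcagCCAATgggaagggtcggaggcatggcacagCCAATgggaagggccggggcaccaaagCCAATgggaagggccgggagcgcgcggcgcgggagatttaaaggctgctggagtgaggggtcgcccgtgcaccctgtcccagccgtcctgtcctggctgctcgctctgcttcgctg
MCM10: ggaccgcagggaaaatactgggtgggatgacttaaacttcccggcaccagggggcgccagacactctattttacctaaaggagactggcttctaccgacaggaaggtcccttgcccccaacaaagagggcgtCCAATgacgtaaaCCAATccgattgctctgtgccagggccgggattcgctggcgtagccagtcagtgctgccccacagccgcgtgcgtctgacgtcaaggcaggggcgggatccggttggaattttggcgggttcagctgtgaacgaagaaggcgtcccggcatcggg
GINS2: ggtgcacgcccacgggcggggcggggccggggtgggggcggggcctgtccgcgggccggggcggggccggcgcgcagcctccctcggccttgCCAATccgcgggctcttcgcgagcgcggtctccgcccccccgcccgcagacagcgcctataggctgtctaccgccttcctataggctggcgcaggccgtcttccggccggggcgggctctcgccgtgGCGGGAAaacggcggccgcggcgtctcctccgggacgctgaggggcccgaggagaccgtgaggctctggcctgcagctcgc
MAD2L1: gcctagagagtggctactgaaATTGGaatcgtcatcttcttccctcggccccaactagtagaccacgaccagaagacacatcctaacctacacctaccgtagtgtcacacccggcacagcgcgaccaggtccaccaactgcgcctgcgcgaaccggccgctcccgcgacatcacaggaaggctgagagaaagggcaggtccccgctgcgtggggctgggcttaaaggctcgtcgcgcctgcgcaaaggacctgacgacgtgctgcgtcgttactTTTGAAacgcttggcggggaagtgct
ECT2: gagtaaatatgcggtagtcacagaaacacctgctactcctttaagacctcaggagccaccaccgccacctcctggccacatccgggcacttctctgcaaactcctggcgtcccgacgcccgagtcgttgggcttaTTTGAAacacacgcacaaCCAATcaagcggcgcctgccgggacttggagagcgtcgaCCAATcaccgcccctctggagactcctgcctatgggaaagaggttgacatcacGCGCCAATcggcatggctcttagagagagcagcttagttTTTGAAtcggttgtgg

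The promoters of the receptor and FOXO list (22 of 24 genes, 36 promoters) held the FOXO-type letters GTAAACA in 3 (8.33%, against 3.42% of all promoters and 2.67% of those of tested genes). The promoters of the ERK list (13 of 21 genes, 23 promoters) held the ETS-type letters CCGGAAG in 1 (4.35%, against 10.3% of all and 15.9% of those of tested genes). These shares rest on few promoters. ERBB2 (chr17:39687844-39688143, plus strand), the receptor gene that rose the most, is printed with 2 ETS-type matches in capitals. Its promoter was the only 1 of the 36 of the receptor and FOXO list that held the ETS-type letters (2.78%). The promoters of DUSP6 and PHLDA1, and the first of the 2 promoters of PIK3IP1, which rose the most in that list, held neither motif.
ERBB2: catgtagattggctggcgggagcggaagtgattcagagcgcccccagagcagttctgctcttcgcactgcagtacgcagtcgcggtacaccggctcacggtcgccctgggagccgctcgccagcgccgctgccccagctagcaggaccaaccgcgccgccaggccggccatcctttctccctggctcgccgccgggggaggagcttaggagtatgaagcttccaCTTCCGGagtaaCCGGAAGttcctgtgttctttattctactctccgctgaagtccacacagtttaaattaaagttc

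The late response covered most of the tested genes. Of 13254 genes with signal in at least 1 course, 8959 changed (67.6%), 4326 higher (32.6%) and 4633 lower (35.0%), by limma on the 11 paired differences at an adjusted p under 0.05. A change of at least 2-fold was called for 2118 genes upward (16.0%) and 2130 downward (16.1%), and the lowest array of the higher treatment lay above the highest array of the other for 3186 genes (24.0%; 12.2% higher and 11.8% lower). The median absolute difference was 0.63, against 0.24 for the mean differences over 0 to 5 h and 0.46 over 6 to 13 h. The counts given for gene lists below are to be read beside the shares of all tested genes, 32.6% higher and 35.0% lower. The arrays measure RNA of whole cultures, so fewer cells with a transcript and less transcript per cell cannot be told apart.

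Every slide carried the untreated sample in position 1 and the gefitinib sample in position 4, so position and treatment cannot be told apart. Both arrays of a pair shared a slide, and the 11 slides were scanned on 4 days, within each of which 97.7% to 99.8% of the 8959 genes kept their direction. The pairs of each day are part of the mean by which these genes were called, so high shares were largely built in and do not test an effect of scan day. Well above background were 26689 to 35956 of 45015 features on the gefitinib arrays, the highest at 14 h, and 27108 to 30016 on the untreated arrays. The pairs of 14, 16 and 18 h stood apart, with correlations across genes of 0.79, 0.74 and 0.73 with the mean of the other pairs, against 0.86 to 0.94 for the rest. Without these 3 pairs 9622 genes were called, 8697 of them among the 8959. Under scaling to the 75th percentile the median difference of all genes moved from -0.04 to 0.07, and the split became 4727 higher and 4246 lower.

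**Figure D1:**
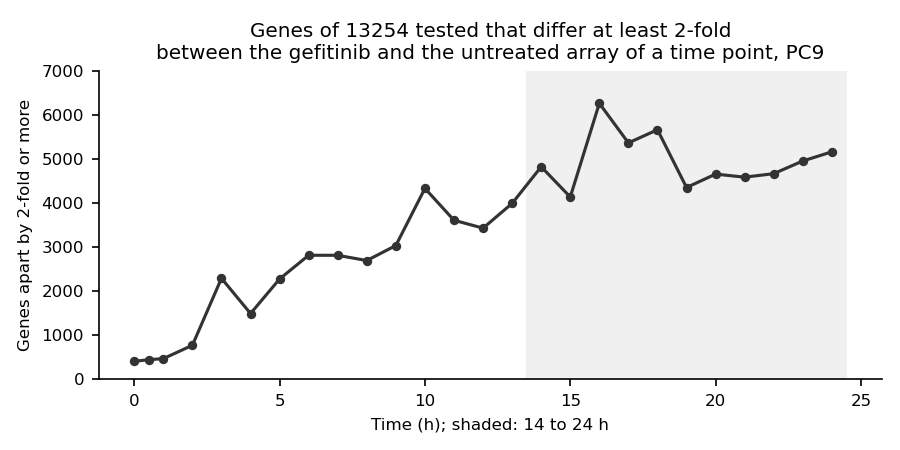
Number of genes at least 2-fold apart between gefitinib-treated and untreated PC9 cells at each of the 26 time points (x axis, hours), either way. The number rose from 404 at 0 h to between 4141 (15 h) and 6272 (16 h) in the 14 to 24 h window.

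The genes that ERK induces stayed low from 14 to 24 h. Of 21 tested members, 20 fell, 18 of them by at least 2-fold, none rose, and the median difference was -2.96 (all tested genes, -0.04). The fallen genes held phosphatases that switch ERK off (DUSP4, DUSP6), Sprouty and SPRED inhibitors of the RAS pathway (SPRY4, SPRED1, SPRED2), ETS factors (ETV1, ETV4, ETV5) and immediate early factors (EGR1, FOS, FOSL1). The ranges of both treatments did not overlap for 17 of the 20. Without the pairs of 14, 16 and 18 h the count was also 20.

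DUSP6, a phosphatase specific for ERK, lay at 12.90 to 13.93 (median 13.57) in untreated cells and at 5.00 to 7.14 (median 5.48) with gefitinib. All 11 gefitinib arrays lay below all 11 untreated arrays, and DUSP6 fell by 7.81, or 225-fold (SE 0.19, adjusted p = 4.3e-12), the largest fall among genes detected with both treatments. SPRY4, an inhibitor of RAS activation, was at 9.28 to 9.92 (median 9.55) without and 3.91 to 5.86 (median 5.16) with the drug. Its ranges also lay apart, and it fell by 4.54 (SE 0.15, adjusted p = 3.8e-11). EGR1, an immediate early zinc finger factor, ran at 9.60 to 11.08 (median 10.33) in untreated cells and 3.75 to 6.59 (median 6.15) with gefitinib. Even the highest gefitinib array was below every untreated array, and EGR1 fell by 4.49 (SE 0.20, adjusted p = 3.8e-10).

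PHLDA1, a gene with a pleckstrin homology-like domain that is induced by growth factors, lay at 8.43 to 9.28 (median 8.84) and fell by 4.71 (SE 0.26, adjusted p = 2.8e-09), with 2 of 11 gefitinib arrays well above background. Other probes of PHLDA1 gave -3.34 to -4.38. ETV5 was not well above background on any gefitinib array and was at least 19.7-fold lower (untreated 8.25 to 9.45, gefitinib 1.91 to 2.98, adjusted p = 1.4e-12), although another of its probes passed on 1 gefitinib array. Such a bound sets the mean of the measured treatment against the dimmest signals that still passed on the arrays of the other. The adjusted p printed with a bound is that of the fitted difference and does not test the bound. MYC, a driver of growth, fell by 1.93 (SE 0.24, adjusted p = 1.1e-05) with overlapping ranges and 2 of 11 gefitinib arrays well above background, and FOS and IER3 fell by 2.22 and 2.16. DUSP5 and SPRY1, feedback genes of the same kind, fell by 0.87 and 0.51. EPHA4, an ephrin receptor, was the member that did not pass (0.12, SE 0.12).

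**Figure D2:**
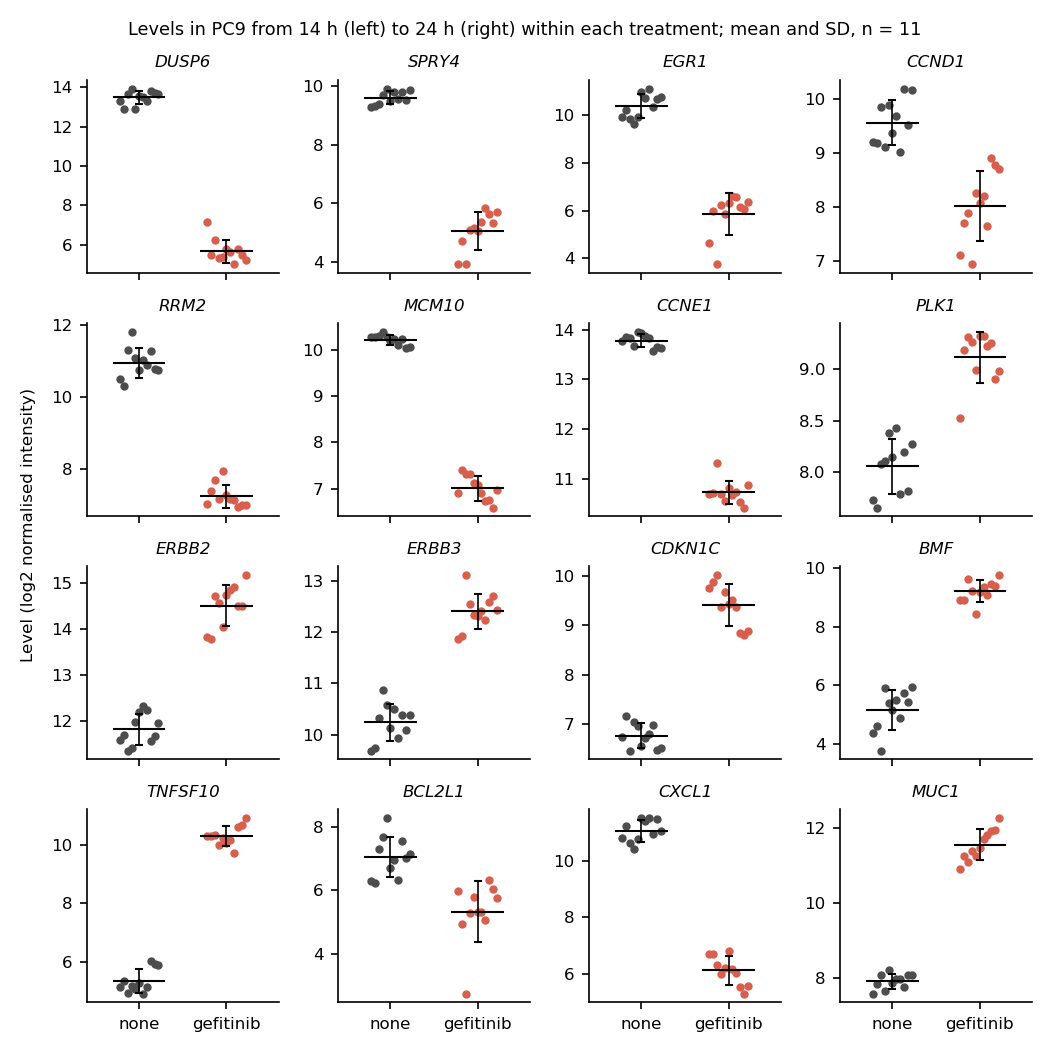
Log2 normalized signal (y axis) of 16 genes in untreated and gefitinib-treated PC9 cells, 11 arrays each, drawn from left to right from 14 to 24 h, with the mean and SD (n = 11). DUSP6 lay at 12.90 to 13.93 without and 5.00 to 7.14 with gefitinib, whereas the ranges of BCL2L1 overlapped.

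In the list of ERBB receptors, IRS adaptors and FOXO-induced genes, 16 of 24 rose and 4 fell, with a median of 0.85, and 9 of the 16 had ranges that did not overlap. Without the pairs of 14, 16 and 18 h the counts were 17 and 6. ERBB2, the receptor without a ligand of its own that pairs with the other members, was at 11.35 to 12.31 (median 11.70) in untreated cells and 13.78 to 15.17 (median 14.56) with gefitinib. The ranges lay apart by more than 1 unit, and ERBB2 rose by 2.70 (SE 0.13, adjusted p = 1.3e-09), while another of its probes gave 1.21. ERBB3, which carries docking sites for PI3K, lay at 9.69 to 10.88 (median 10.32) without and 11.87 to 13.11 (median 12.40) with gefitinib, again without overlap, and rose by 2.16 (SE 0.11, adjusted p = 1.2e-09). EGFR itself fell by 0.28 (SE 0.10, adjusted p = 0.021), and ERBB4 was not called (-0.60).

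PIK3IP1, a membrane protein that inhibits PI3K, was at 5.09 to 7.75 (median 6.69) in untreated cells and 9.12 to 10.63 (median 10.11) with the drug. No array of either treatment fell within the range of the other, and PIK3IP1 rose by 3.38 (SE 0.22, adjusted p = 1.5e-08). PDK4, which inhibits pyruvate dehydrogenase, rose by 2.54, KLHL24 by 2.29 (0.92 on another probe), the repressor BCL6 by 2.23 and the atrophy ubiquitin ligase FBXO32 by 1.69. Among the receptors and adaptors of insulin signalling INSR rose by 1.76, IGF1R by 0.86 (0.35 on another probe) and IRS2 by 0.72, while IRS1 fell by 0.61 (SE 0.12, adjusted p = 5.1e-04). FOXO1 and FOXO4 rose by 1.19 and 1.61, and FOXO3 was not called (0.17). ERRFI1, an inhibitor that binds the EGFR kinase domain and is itself induced by EGFR, went against the list and fell by 2.60 (SE 0.10, adjusted p = 1.3e-10), as did LRIG1 (-0.81), another negative regulator of ERBB receptors that was near background with both treatments.

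Among the D-type cyclins, their kinases and their inhibitors, 7 of 14 tested genes rose and 6 fell. CCND1, the D-type cyclin that ERK induces, was at 9.02 to 10.19 (median 9.52) without and 6.94 to 8.91 (median 8.08) with gefitinib. The ranges nearly touched but did not overlap, and CCND1 fell by 1.54 (SE 0.13, adjusted p = 1.4e-07), while CCND3 was not called (-0.04, and 0.34 on another probe). CDK4 fell by 1.13 and CDK6 rose by 1.24. CDKN1C, which encodes the inhibitor p57, lay at 6.47 to 7.16 (median 6.75) in untreated cells and 8.80 to 10.02 (median 9.43) with gefitinib. It was higher at all 11 hours with no overlap, by 2.64 (SE 0.13, adjusted p = 1.3e-09). RBL2, the pocket protein of the DREAM repressor, rose by 2.15, and CDKN1B (p27) by 0.87. CDKN2D (p19) fell by 2.15 (SE 0.10, adjusted p = 6.9e-10), CDKN1A (p21) by 1.21 and RB1 by 0.79.

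The DNA replication genes were lower as a group. Of 42 tested, 35 fell, 33 of them by at least 2-fold, 2 rose, and the median was -1.69; 29 had ranges that did not overlap. The counts without the pairs of 14, 16 and 18 h were 36 and 2. RRM2, the small subunit of ribonucleotide reductase, which makes deoxyribonucleotides, lay at 10.31 to 11.81 (median 10.90) in untreated cells and 6.94 to 7.96 (median 7.16) with gefitinib. All gefitinib arrays were more than 2 units below the lowest untreated array, and RRM2 fell by 3.70 (SE 0.14, adjusted p = 1.3e-10). MCM10, which helps to load the replication machinery at origins, had ranges of 10.04 to 10.38 (median 10.24) and 6.60 to 7.41 (median 6.98). These ranges are narrow and far apart, and MCM10 fell by 3.20 (SE 0.08, adjusted p = 4.8e-12). CCNE1, the cyclin that activates CDK2 at the end of G1, was at 13.58 to 13.95 (median 13.82) and 10.43 to 11.32 (median 10.70). It fell by 3.05 (SE 0.09, adjusted p = 1.1e-11), with every pair in that direction.

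GINS2, part of the replicative helicase, fell by 3.04 (SE 0.10, adjusted p = 3.8e-11). The helicase subunits MCM2 to MCM7 all fell, from -1.08 (MCM5) to -2.29 (MCM6), as did the clamp PCNA (-2.05), its loaders RFC2 to RFC5 (-1.17 to -2.31), thymidylate synthase TYMS (-2.22) and the factor E2F1 (-2.19). E2F2, another activator of the family, rose by 0.93 (SE 0.16, adjusted p = 2.0e-04), although another of its probes gave -0.24, and the ligase LIG1 by 0.38 (SE 0.14, adjusted p = 0.026), against the list. CDT1, GINS3, PRIM1, RPA3 and TK1 were not called. The untreated TK1 arrays ran from 8.99 to 14.67 with a median of 14.41.

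The mitosis genes moved less and in both directions. Of 33 tested genes, 20 fell and 6 rose, with a median of -0.41, and 5 had ranges that did not overlap. MAD2L1, a component of the spindle checkpoint, lay at 11.61 to 12.63 (median 12.25) and 9.85 to 10.87 (median 10.51). It fell by 1.83 without overlap (SE 0.12, adjusted p = 1.5e-08). ECT2, the exchange factor that starts cytokinesis, fell by 1.61 (SE 0.33, adjusted p = 6.7e-04), the kinase CDK1 by 1.24 and its partner CKS2 by 1.19, all with overlapping ranges. Other probes of ECT2 gave -1.03 and -0.60. PLK1, a mitotic kinase, went the other way, at 7.65 to 8.43 (median 8.10) in untreated and 8.53 to 9.33 (median 9.22) in gefitinib-treated cells. The gefitinib arrays were all above the untreated arrays, and PLK1 rose by 1.07 (SE 0.10, adjusted p = 4.4e-07). BIRC5, which encodes survivin, rose by 1.13, CCNB2 by 0.46, CENPF by 0.43, KIF20A by 0.38 and KIF11 by 0.29 (-0.036 on another probe), whereas CCNB1 fell by 0.26. TOP2A, BUB1B and NUF2 were among the 7 that were not called.

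Among the BH3-only genes, whose products start the mitochondrial route of cell death, 4 of 8 rose and 2 fell. BMF, which is released to the mitochondria when it is not held at the cytoskeleton, lay at 3.79 to 5.94 (median 5.41) in untreated cells and 8.42 to 9.76 (median 9.22) with gefitinib. The untreated arrays were low, 8 of 11 being well above background, none reached the gefitinib range, and BMF rose by 4.04, or 16.5-fold (SE 0.20, adjusted p = 1.4e-09). HRK and BAD rose by 1.51 and 1.51, both without overlap, and PMAIP1 (NOXA) by 0.52, but another probe of HRK, detected on all arrays, gave 0.03. BID and BIK fell by 0.61 and 0.58. BCL2L11, which encodes BIM, was not called on the probe used (-0.23, SE 0.21), while another of its 4 probes gave 0.87 and the remaining probes -0.23 and -0.15. BBC3 (PUMA) was at 0.01, with saturated spots on some arrays.

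Of the 7 tested BCL2 survival genes and effectors, 2 rose and 2 fell, against 32.6% higher and 35.0% lower of all tested genes. BCL2L1, which encodes BCL-XL, was at 6.23 to 8.27 (median 7.00) in untreated cells and 2.74 to 6.33 (median 5.31) with gefitinib. A single gefitinib array formed the low end, the ranges overlapped, and BCL2L1 fell by 1.72 (SE 0.30, adjusted p = 2.0e-04). MCL1, another survival protein, fell by 0.54 on the probe used (SE 0.14, adjusted p = 0.0040), whereas its other probes gave 0.75 and 0.74. BCL2L2 and BOK rose by 0.59 and 0.83, and BCL2, BAX and BAK1 were not called.

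TNFSF10, the ligand TRAIL, rose while most of its receptors fell. TNFSF10 lay at 4.91 to 6.04 (median 5.15) in untreated cells and 9.72 to 10.91 (median 10.29) with gefitinib. The ranges were far apart, and it rose by 4.95, or 31.0-fold (SE 0.09, adjusted p = 6.3e-13). The death-signalling receptors TNFRSF10A and TNFRSF10B fell by 2.87 and 1.70, the decoy receptor TNFRSF10D by 4.08 (1 of 11 gefitinib arrays well above background) and FAS by 2.31, all without overlap, and the adaptor FADD by 1.20. The other decoy, TNFRSF10C, which was near background with both treatments, rose by 1.20, as did CASP10 (1.88) and CFLAR (1.03), which encodes the caspase inhibitor FLIP, while CASP8 was not called (0.18, and -0.78 on another probe). CASP10 passed on 2 of 11 untreated arrays. Over the 10 tested genes 4 rose and 5 fell.

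Genes of the differentiated lung and airway epithelium were higher in part. Of 18 tested lung lineage and surfactant genes, 10 rose and 1 fell, with a median of 0.49. MUC1, a membrane mucin of secretory epithelia, lay at 7.59 to 8.22 (median 7.98) in untreated cells and 10.91 to 12.27 (median 11.48) with gefitinib. The ranges did not overlap, and MUC1 rose by 3.62 (SE 0.12, adjusted p = 4.1e-11). The surfactant protein genes SFTPD and SFTPC rose by 2.59 and 1.53 (SFTPC 0.30 on another probe), the club cell gene SCGB1A1 by 1.45, the lipid transporter ABCA3 by 0.90 and AGER, a marker of alveolar type I cells, by 0.86. SCGB3A2, a related secretoglobin, fell by 0.65 (SE 0.10, adjusted p = 6.0e-05), and AQP5, HOPX and LAMP3 were not called. SFTPB and SFTPA1 were not called either, on probes near background with both treatments. Another SFTPA1 probe, detected on 11 gefitinib and 9 untreated arrays, gave 0.07.

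Keratins and junction genes shifted toward higher levels with exceptions. Of 15 keratins 7 rose and 3 fell (9 and 3 without the pairs of 14, 16 and 18 h), with a median of 0.57. The basal cell keratins KRT14 and KRT15 rose by 2.26 and 2.21, KRT4 by 3.18 and KRT17 by 1.64. KRT6A, a keratin of activated and wounded epithelium, was at 11.79 to 13.73 (median 13.00) and 7.58 to 10.60 (median 10.00). It went against the others and fell by 3.05 without overlap (SE 0.24, adjusted p = 1.0e-07), and KRT7 fell by 0.58. KRT18 and KRT19 were not called, and their probes were saturated on all 22 arrays, so they give only bounds. Of 19 tight junction and adhesion genes 11 rose and 2 fell: the epithelial factor ELF3 rose by 3.36, cingulin (CGN) by 2.75, CLDN3 by 1.37 and the splicing regulator ESRP1 by 1.03, while EPCAM and TJP1 fell by 0.68 and 0.39 (TJP1 0.019 on another probe) and CDH1 (E-cadherin) was not called (-0.20).

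Of 10 tested mesenchymal genes, 6 rose and 2 fell, with a median of 0.57. SPARC, a matrix protein, lay at 3.13 to 5.71 (median 4.44) and 6.68 to 8.02 (median 7.65). It rose by 3.17 (SE 0.18, adjusted p = 5.0e-09), though 1 of 11 untreated arrays was well above background, so that this is a fitted difference from signals near background, and SNAI1 and SNAI2, repressors of E-cadherin, rose by 2.48 and 2.12. TGFBI rose by 2.43, with a saturated probe on 8 of the gefitinib arrays. The filament gene VIM and the smooth muscle actin ACTA2 fell by 1.20 and 1.1 (ACTA2 with 4 of 11 gefitinib arrays well above background), and TWIST1 was not called. FN1 was not called on the probe used (0.68), which passed on 5 of 11 gefitinib and 2 of 11 untreated arrays. Other FN1 probes, detected on all arrays, gave 0.82 and 0.92.

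The cytokines and CXC chemokines were lower. Of 13 tested, 11 fell, 1 rose, and the median was -1.65, with 8 of the 11 free of overlap. CXCL1, a chemokine for neutrophils, lay at 10.40 to 11.50 (median 11.04) in untreated cells and 5.29 to 6.81 (median 6.16) with gefitinib. The gefitinib arrays were all more than 3 units below the untreated arrays, and CXCL1 fell by 4.94, or 30.8-fold (SE 0.18, adjusted p = 8.4e-11). CXCL8 was not well above background on any gefitinib array and was at least 9.47-fold lower (untreated 7.00 to 8.86, gefitinib 1.90 to 2.33, adjusted p = 1.6e-11). CXCL2, LIF and IL6 fell by 3.02, 2.79 and 1.65, with 2, 1 and 4 of 11 gefitinib arrays well above background. IL1RN, the antagonist of the interleukin-1 receptor, rose by 2.63 (SE 0.10, adjusted p = 1.4e-10), whereas IL1B, which passed on no gefitinib array, was at least 2.7-fold lower.

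The interferon-stimulated genes were divided, with 10 of 27 higher and 13 lower and a median of -0.28. GBP2, a guanylate-binding protein, rose by 4.02 (SE 0.14, adjusted p = 6.4e-11), IFI6 by 2.52 and IRF9, part of the ISGF3 complex, by 1.43, while USP18 fell by 2.63 (SE 0.10, adjusted p = 1.8e-10), ISG20 by 1.90, IFIT5 by 1.62 and the chemokine CXCL10 by 1.42. STAT2, another part of that complex, rose by 0.75. ISG15 and MX1 were not called (0.17 and 0.04). Of 18 MHC class I genes 10 rose and 2 fell. NLRC5, the transactivator of MHC class I, passed on no untreated array on the probe used (adjusted p = 6.9e-06), while the probe detected on all 22 arrays gave 0.91. TAPBP rose by 1.63 (2 of 11 untreated arrays well above background, and 0.96 on a probe detected on all) and HLA-B by 0.51, and TAP2 and ERAP2 fell by 1.18 and 0.82. HLA genes are near-identical, so a probe of one may also bind the transcripts of another.

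Genes of glycolysis and targets of HIF were lower, with 20 of 27 fallen (17 without the pairs of 14, 16 and 18 h), none risen and a median of -1.01. PDK1, which keeps pyruvate from the mitochondria, lay at 10.36 to 11.42 (median 11.08) in untreated cells and 5.66 to 8.16 (median 7.77) with gefitinib. Its ranges did not overlap, and PDK1 fell by 3.46 (SE 0.22, adjusted p = 1.5e-08). CA9, the carbonic anhydrase that HIF induces, fell by 3.55 (SE 0.37, adjusted p = 1.6e-06) with overlapping ranges and 1 of 11 gefitinib arrays well above background, and the phosphofructokinase PFKP fell by 2.76, ENO2 by 2.72, PGK1 by 1.72 (-0.77 on another probe) and the glucose transporter SLC2A1 by 1.23. HK2 fell by 1.93 (SE 0.50, adjusted p = 0.0038), and its untreated arrays ran from 1.96 to 9.43 with a median of 9.13. LDHA, ALDOA, ENO1 and GAPDH were not called, the probe of GAPDH being saturated on all 11 untreated arrays.

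Of 28 tested sterol and fatty acid synthesis genes, 15 fell and none rose, with a median of -0.47, while without the pairs of 14, 16 and 18 h 16 fell and 2 rose. HSD17B7, a late enzyme of cholesterol synthesis, fell by 1.50 (SE 0.13, adjusted p = 3.7e-07), SC5D by 1.25 and HMGCS1 by 1.03, with other probes of these last at -0.34 and -0.26. SCD, a desaturase, fell by 1.14 on the probe used, whereas other probes gave 0.51 and -0.64. The fatty acid synthase FASN and the regulators SREBF1 and SREBF2 were not called (0.00, 0.17 and 0.02). Of 29 ATF4 targets and aminoacyl-tRNA synthetases 14 fell and 6 rose. SLC7A11, the cystine transporter, fell by 3.46 without overlap (SE 0.38, adjusted p = 2.6e-06), SLC7A1 by 1.83 and ATF3 by 1.31. The probes used for SLC7A11 and SLC7A1 passed on 2 of 11 gefitinib arrays each, and other probes gave -1.93 and -2.66 for SLC7A11 and -1.09 for SLC7A1. AARS1, the alanyl-tRNA synthetase, rose by 2.66 (SE 0.20, adjusted p = 8.0e-08), and ATF4 and ASNS rose by 0.56 (0.18 on another probe) and 0.40.

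The ribosome biogenesis genes fell in 25 of 30 cases, 20 of them by at least 2-fold, 4 rose, and the median was -1.30. UTP20, which processes the precursor of the small subunit RNA, lay at 9.36 to 10.27 (median 9.76) and 7.15 to 8.24 (median 7.59). Its ranges did not overlap, and UTP20 fell by 2.18 (SE 0.09, adjusted p = 2.5e-10). NOP2, the helicase DDX21 and UTP15 fell by 2.08, 2.07 and 2.03. PES1 rose by 1.94 (SE 0.26, adjusted p = 1.8e-05), though 1 untreated array read 1.88 against a median of 5.04, and WDR75, WDR12 and GNL3 rose by 0.63, 0.38 and 0.35. NPM1 was not called and was saturated on all arrays. In the MYC network, where MXD proteins compete with MYC for MAX, 5 of 13 rose and 2 fell: MXD4 rose by 2.41 (SE 0.21, adjusted p = 2.6e-07), MYCL by 2.14 and MLXIPL by 1.98, and MAX was not called. Other probes of MLXIPL, detected on all arrays, gave 1.72 and -0.37. The probes used for MYCL and MLXIPL passed on 3 and 1 of 11 untreated arrays, so their differences are from signals near background.

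Among 34 lysosome and autophagy genes, 16 rose and 10 fell, with a median of 0.24, against 32.6% higher and 35.0% lower of all tested genes. ULK1, the kinase that starts autophagy, was at 10.76 to 11.95 (median 11.44) and 13.20 to 14.03 (median 13.71). It rose by 2.26 without overlap (SE 0.09, adjusted p = 1.6e-10), the cathepsins CTSF and CTSB rose by 2.11 and 1.44 and LAMP2 by 1.23 (0.17 on another probe), while the galactosidase GLA fell by 1.49 and TFE3, a factor for lysosomal genes, by 0.98. Of 15 Wnt feedback genes and LEF/TCF factors 4 rose and 6 fell, against the same shares of all tested genes. TCF7L1, a LEF/TCF family repressor, rose by 3.94 (SE 0.26, adjusted p = 1.5e-08; 4 of 11 untreated arrays well above background) and AXIN2, a feedback inhibitor, by 3.77 (SE 0.11, adjusted p = 1.1e-11), whereas ZNRF3, which clears Frizzled receptors, fell by 2.50 (SE 0.17, adjusted p = 3.0e-08). AXIN1, a scaffold of the β-catenin destruction complex, and NOTUM, an extracellular Wnt inhibitor, fell by 0.76 and 0.35. CTNNB1 (β-catenin) was not called on the probe used (0.06), while another probe, detected on all arrays, gave -0.34.

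**Figure D3:**
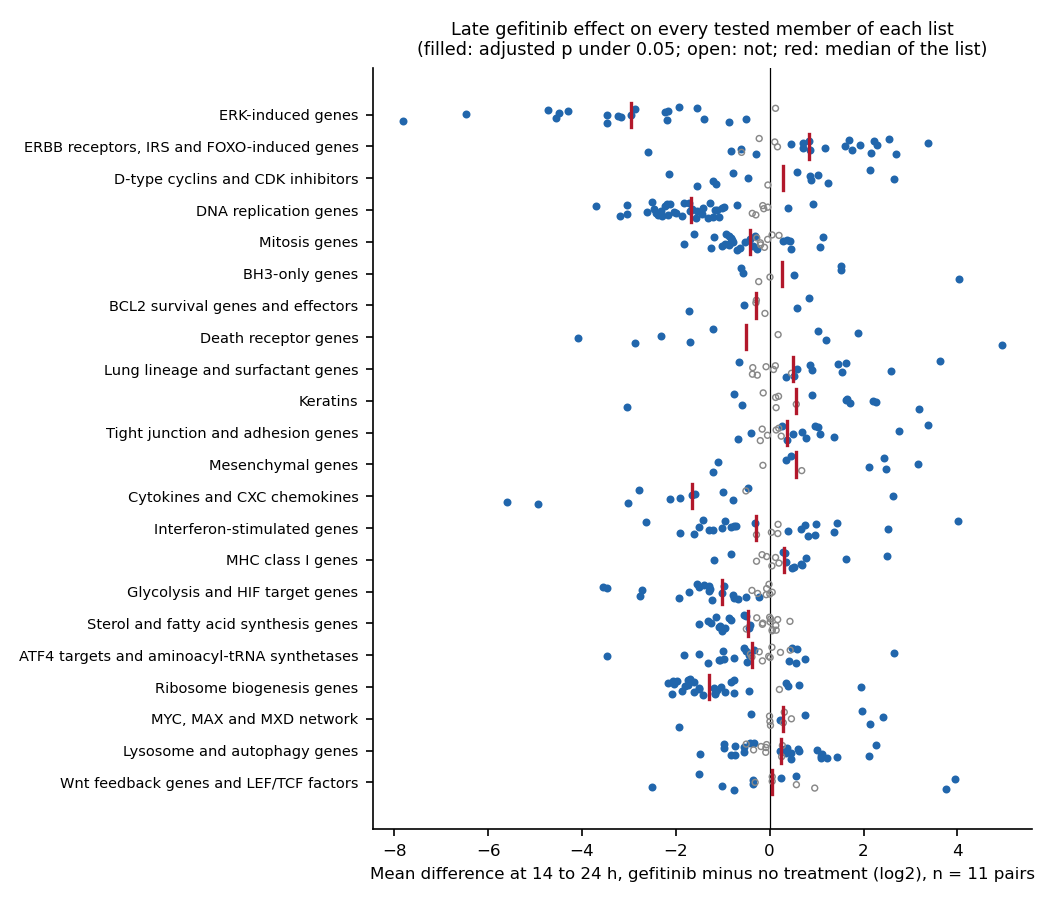
Difference between gefitinib and no treatment (x axis, log2) for every tested member of each list, 14 to 24 h; filled points have an adjusted p under 0.05 and the red line is the median of the list. The medians run from -2.96 for the ERK-induced genes to 0.85 for the ERBB, IRS and FOXO list.

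Outside the lists, the gene with the largest rise among those detected with both treatments was ATP6V1B1, a subunit of the proton pump. It lay at 4.54 to 6.52 (median 5.35) in untreated cells and 11.07 to 12.70 (median 12.16) with gefitinib. The ranges lay more than 4 units apart, and it rose by 6.65, or 100.4-fold (SE 0.17, adjusted p = 4.8e-12). ALPG, a germ cell alkaline phosphatase, rose by 5.78, CYP4B1, a cytochrome P450 of the lung, by 5.65, the selenium carrier SELENOP by 5.10 and TMT1A, FAM78A and the glycosyltransferase MGAT3 by 5.09, 4.98 and 4.94. Below DUSP6, the largest falls were those of ANKRD22 (-5.91), the ubiquitin ligase MARCHF4 (-5.91), the decoy interleukin-1 receptor IL1R2 (-5.11), CXCL1, the laminin receptor subunit ITGA6 (-4.88), ARNT2 (-4.65) and TMEM158 (-4.61). Another probe of TMEM158, detected on all 22 arrays, gave -0.093, and another of MGAT3, detected on 1 gefitinib array only, gave 0.054. ITGA6 was at 12.26 to 13.24 (median 12.76) without and 7.20 to 8.41 (median 7.84) with gefitinib. All of these genes had ranges that did not overlap on the probe used.

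Some genes were measurable with 1 treatment only, and the adjusted p printed with their bounds is again that of the fitted difference. RADIL, an effector of the small GTPase RAP, was not well above background on any untreated array (range 1.84 to 4.22) and passed on all 11 with gefitinib (range 10.14 to 11.14), at least 67.6-fold higher (adjusted p = 7.8e-11). The potassium channel KCNJ13 was at least 38.2-fold higher and CCN5, a secreted CCN protein, at least 19.0-fold higher. SPEF2, a sperm flagellar protein, was at least 15.2-fold higher on the probe used. Its other probes did not rise: 1 that passed on 1 array of each treatment gave -0.34, and 1 that passed on no array gave -0.20. In the other direction CD274, which encodes the immune checkpoint ligand PD-L1, passed on all 11 untreated arrays (range 8.10 to 8.89) and on none with gefitinib (range 1.80 to 4.03). It was at least 15.5-fold lower (adjusted p = 1.3e-10), and ADAM21 was at least 9.27-fold lower.

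The next comparison asked which genes differed between the late window and the 15 earlier time points of the same courses (0 to 13 h), and it shares the late arrays with the comparison above. The difference changed for 5754 genes (43.4%), being more positive late for 2886 (21.8%) and more negative for 2868 (21.6%). These p-values rest on closely spaced samples. With time points 3 h apart, a setting that also has fewer pairs, 337 genes were called, and 4390 with the variance inflated for autocorrelation. The cause of the drop was not tested. The DNA replication genes had 37 of 42 members more negative late and none more positive, with medians of 0.27 over 0 to 5 h, -1.0 over 6 to 13 h and -1.69 over 14 to 24 h. RRM2 was at -0.36, -2.23 and -3.70 in these windows (late minus earlier -2.34, SE 0.40, adjusted p = 3.6e-05), and MCM10 at -0.02, -2.44 and -3.20 (-1.89, SE 0.42, adjusted p = 5.8e-04). The mitosis genes had 23 of 33 more negative and 2 more positive, their medians being 0.33, 0.09 and -0.41.

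The ERK-induced genes were low from the start, with medians of -2.18, -2.86 and -2.96, and 8 of 21 were more negative and 4 more positive late. DUSP6 went from -4.75 over 0 to 5 h to -7.21 and -7.81 (-1.75, adjusted p = 0.0023), and ETV4 from -0.59 to -2.83 and -3.48. SPRY4 was less reduced late (-4.93, -5.66 and -4.54; late minus earlier 0.77, SE 0.22, adjusted p = 0.0055). ERBB2 went from 0.86 through 1.97 to 2.70 (late minus earlier 1.24, adjusted p = 1.8e-04). BMF, by contrast, was at 2.87, 4.18 and 4.04, and its late difference did not pass against the earlier one (0.48, SE 0.37, adjusted p = 0.32).

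The lung lineage genes had 9 of 18 more positive late and none more negative (medians 0.05, 0.31 and 0.49), the cytokines 10 of 13 more negative, and the glycolysis and HIF list 16 of 27 more negative and none more positive (medians -0.25, -0.52 and -1.01). Among all called genes the largest late gains were those of SPEF2 (4.05), IFITM1 (3.82), an interferon-induced membrane protein, NEK3 (3.65), EEF1AKMT2 (3.83) and NKAIN4 (3.75). IFITM1 was at 0.95 over 0 to 5 h, 3.22 over 6 to 13 h and 5.98 late. The largest late losses were those of ADAM21 (-3.62), GREB1 (-4.24), an estrogen-induced gene, AGMO (-3.57), MAP3K7CL (-3.47) and KCTD16 (-4.34). On the probes used, SPEF2, NEK3 and NKAIN4 were well above background on no late untreated array and ADAM21, GREB1, AGMO and MAP3K7CL on no late gefitinib array. Another probe of SPEF2, with a late difference of -0.34, passed on 1 of the former and another of GREB1 on 1 of the latter. IFITM1 and EEF1AKMT2 passed on 1 late untreated array each and KCTD16 on 2 late gefitinib arrays. All of these are therefore fitted differences that depend on signals near background.

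**Figure D4:**
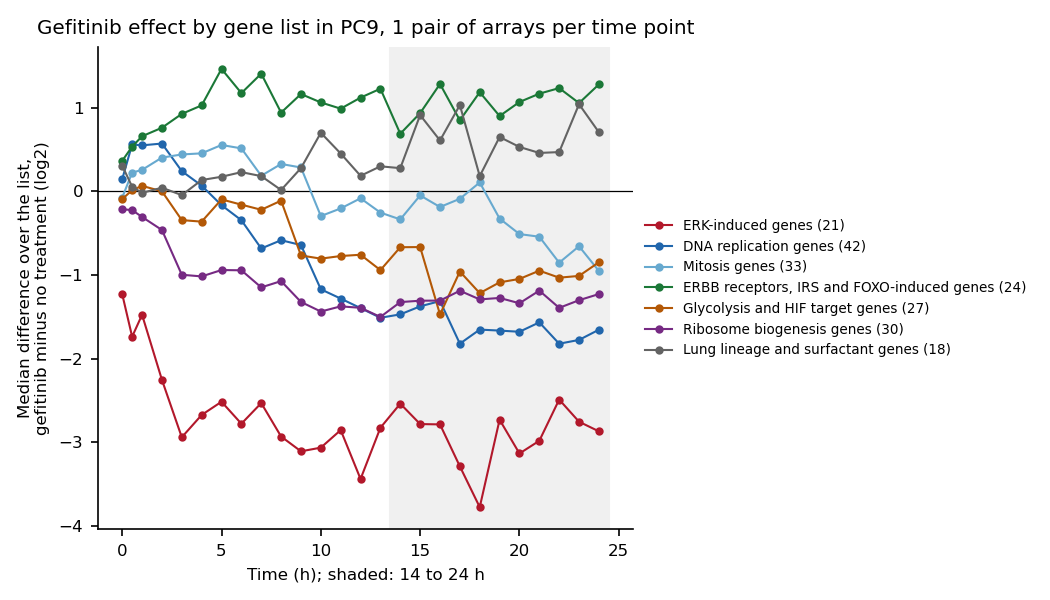
Median difference between gefitinib and no treatment (y axis, log2) of 7 gene lists at each of the 26 time points (x axis, hours), with 14 to 24 h shaded. The ERK-induced genes were low throughout, whereas the DNA replication genes went from a median of 0.27 over 0 to 5 h to -1.69 in the window.

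A change within the window itself was tested by the slope. The slope of the difference over the hours from 14 to 24 h passed for 130 of 13253 genes (0.981%), 75 upward and 55 downward, and 2070 had an unadjusted p under 0.05. With scan day as a random block 570 were called. The steepest were HCCS (0.46 per hour, SE 0.08, adjusted p = 0.025), MMP28 (0.43) and EDIL3 (0.35) upward and RSPH10B (-0.39), TMIE (-0.37) and CIB3 (-0.31, SE 0.04, adjusted p = 0.016) downward. These calls rest on single pairs: leaving out 1 hour gave 0 (without 23 h) to 344 calls (without 18 h), with 3 without 14 h and 16 without 14, 16 and 18 h together. No gene was called at hours 3 h apart by limma, where 864 had an unadjusted p under 0.05.

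Gefitinib was also given in the presence of EGF, and EGF with gefitinib was compared with EGF alone on other arrays of the same 11 slides (positions 3 and 2). In that comparison 10239 of the tested genes changed (77.3%), 5014 higher (37.8%) and 5225 lower (39.4%). Of the 8959 genes called without EGF, 8401 were called in it (93.8% of the former and 82.1% of the latter), 8387 in the same direction and 14 in the opposite one. Across the 13254 genes the differences had an r of 0.97, given as a description, since the points share slides, hours and cell culture. The ERK-induced genes had medians of -2.96 without and -2.92 with EGF and the replication genes -1.69 and -1.37.

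DUSP6 was at -8.12 with EGF (SE 0.09, adjusted p = 2.1e-15), against -7.81 without. ERBB2 was at 2.88, BMF at 3.81, MUC1 at 3.83, TNFSF10 at 5.50 and ATP6V1B1 at 8.43, all with the direction seen without EGF. Of the mitosis genes 20 were lower and 6 higher without EGF, and 11 were lower and 13 higher with EGF. For the interferon-stimulated genes the counts were 13 lower and 10 higher without EGF and 11 lower and 14 higher with EGF. The difference between both settings was not tested.

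**Figure D5:**
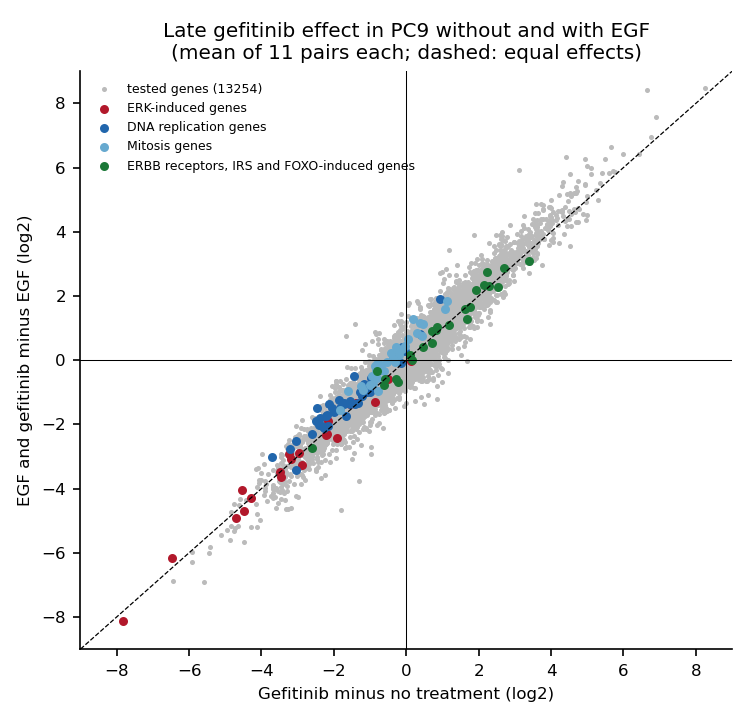
Difference made by gefitinib without EGF (x axis) and with EGF present (y axis), both log2 and averaged over 14 to 24 h, for all tested genes (grey) and 4 lists in colour. Most genes lie along the diagonal (r = 0.97 across genes), with DUSP6 at the lower left.

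The resistant clone PC9GRM2, treated in the same way but processed on other slides and scan days, was set against PC9 by the difference of the paired effects, so that line and processing cannot be told apart. It shares the PC9 arrays with the first comparison. The effect differed for 4665 genes (35.2%), being more positive in PC9GRM2 for 2323 genes (17.5%) and more negative for 2342 (17.7%), with 778 called at time points 3 h apart. Of the 21 ERK-induced genes 19 were more positive in PC9GRM2 and none more negative, their median being -0.77 in PC9GRM2 and -2.96 in PC9. DUSP6 was at -1.60 in PC9GRM2 and -7.81 in PC9 (difference 6.21, SE 0.20, adjusted p = 1.3e-09). EGR1 was at 0.57 in PC9GRM2 and -4.49 in PC9 (difference 5.06, SE 0.22, adjusted p = 1.0e-08).

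Of the 42 replication genes 30 were more positive and 1 more negative in PC9GRM2 (medians -0.65 and -1.69), and of the 30 ribosome biogenesis genes 21 and 2 (medians -0.67 and -1.30). The sterol genes went the other way, 22 of 28 being more negative and 1 more positive in PC9GRM2, with medians of -1.17 and -0.47. BMF was at 4.37 in PC9GRM2 and 4.04 in PC9, PIK3IP1 at 3.58 and 3.38 and TNFSF10 at 5.14 and 4.95. None of these differences passed (BMF 0.33, SE 0.20; PIK3IP1 0.20, SE 0.27; TNFSF10 0.18, SE 0.10), which does not show that the lines responded alike. ERBB2 rose by 1.54 in PC9GRM2 and 2.70 in PC9 (difference -1.16, SE 0.16, adjusted p = 1.0e-04).

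All 8 epithelial markers were among the tested genes, 2 of them fell (EPCAM and KRT7) and none rose. None of the 6 fibroblast markers had enough signal to be tested. Of 8 leukocyte markers 4 were tested and 1 fell, the integrin ITGAM (9.00 to 9.72 (median 9.52) in untreated cells, 7.15 to 8.33 (median 7.72) with gefitinib, difference -1.76, SE 0.16, adjusted p = 5.0e-07), while CD3E and CD14 were not called. Of 5 endothelial markers 2 were tested: VWF rose by 2.48 (6.43 to 7.10 (median 6.63) and 8.91 to 9.50 (median 9.12)) and PECAM1 fell by 0.27. The part of other cell types in these values was not tested.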

How the data were processed

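The samples were Cy3-labelled RNA of PC9 cells on one-colour Agilent whole human genome arrays. Per the file headers the authors extracted the intensity of each spot with Feature Extraction 10.5.1.1, and the deposited processed signal is a background-corrected linear intensity. The deposited table of the series holds intensity values of the same arrays on a linear scale after quantile normalization, with a median of 125.0171 in every column and no centring of genes, and served as an alternative.

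From the scanner files, processed signals of all arrays of the series were quantile normalized, floored at 1 and log2 transformed, and outlier spots were removed (0.0789% of tested values). Of 41000 probes, 24794 matched a RefSeq symbol by accession and 16206 did not. Of 16961 genes, 6040 were covered by several probes and were represented by their most variable probe. Testing required detection above background on 13 or more of the 26 arrays of a course, which kept 13254 genes and left out 3707. Paired differences were tested with the moderated test of limma 3.58.1 in R 4.3.3 with Benjamini-Hochberg adjustment at 0.05, on a linear model per gene, which was tested on simulated data. Pairing follows from the hour and slide that the arrays of a pair share. Quantile normalization gives all arrays 1 distribution, so changes are relative to the other genes. The number of arrays limits the precision.

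Members and gene lists were chosen with earlier results of these data known. Genes were named by size: the 8 largest rises and falls of genes changed alike at all 11 hours and detected on at least 6 arrays of each treatment, 4 of each below background with 1 treatment, up to 4 called members of each list, called members against it and members not called, the 5 largest late gains and losses and 3 slopes each way. Other list members were named after their values were seen. Alternatives were scaling to the 75th percentile, normexp (offset 50, on median signals), the deposited table, a floor of 16, other probe rules and filters, no replicate block, autocorrelation, time points 3 h apart, scan day as a block (statmod 1.5.0), the paired t-test, a linear trend and leaving out arrays. Tables and plots were made in Python 3.11.15 with pandas 2.3.3, numpy 2.4.6 and matplotlib 3.10.9. A few listed genes are not reported here by name and count only in the totals of their lists.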

Additional observations from a re-analysis of the deposited data

Results flagged for a closer look

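The effect of gefitinib at 14 to 24 h differed between PC9GRM2 and PC9 for 4665 genes, and the effect in PC9 differed between 14 to 24 h and 0 to 13 h for 5754 genes, by limma on the differences themselves. Among the listed genes, 11 were called in opposite directions in both lines. Over all 13254 tested genes, 289 were called in opposite directions with a called difference, and the lists were not shown to hold more of them than other genes. The difference (PC9GRM2 minus PC9) was positive for EGR1 (5.06), an immediate early factor, IL1B (2.68), FOS (2.54), PECAM1 (1.62) and the adaptor IRS1 (0.86), which were lower with gefitinib in PC9 and higher in PC9GRM2. It was negative for IFIT1 (-1.09), an interferon-stimulated gene, the asparagine synthetase ASNS (-0.80), CDH3 (-0.80), which encodes P-cadherin, the lineage factor GATA6 (-0.70), S100A4 (-0.59) and WDR12 (-0.51), which were higher in PC9 and lower in PC9GRM2. IL1B was well above background on no gefitinib array of PC9, so its difference rests on signals near background. The lines were processed on different slides and scan days, so line and processing cannot be told apart.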

How the results depend on the processing

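Over 27 settings and 487 listed or named genes, 12566 of 13010 combinations kept their direction and their side of the threshold, 296 lost the call, 134 gained it and 14 were reversed. The counts of calls of the late effect lay between 8589 and 9256 with 1 pair left out, those against the earlier hours between 5439 and 6191, those with EGF between 9957 and 10629, those of the line difference between 4046 and 5594 and those of the slope between 0 and 344. A required change of at least 2-fold left 4248 genes late (2118 higher and 2130 lower), 1969 against the earlier hours, 4452 with EGF and 1305 for the line difference. With time points 3 h apart, a setting with fewer samples, 337 were called against the earlier hours, 778 for the line difference and 0 for the slope, whose count was 196 with a floor of 16, 84 without the filter on dim genes, 570 with scan day as a random block, 228 by the paired t-test and 16 without 14, 16 and 18 h, where the cause was not tested. Without the replicate block, that is without pairing the arrays of an hour, 8374 genes were called late, and the pairing rests on the shared hour and slide. With the probe of highest mean the direction turned for BCL2L11 (0.87), CCND3 (0.34), CTNNB1 (-0.34), KIF11 (-0.036), MCL1 (0.75), MLXIPL (-0.37), SCD (0.51), SLC2A3 (0.030), SP5 (0.41) and TJP1 (0.019), with the mean of all probes for CANX (-0.19), CEBPA (1.90) and MCL1 (0.31), and with a floor of 16 for RBL1 (-0.023). For CEBPA the probe used gave -0.26, whereas other probes gave 2.996 and 2.975, each detected on all 11 arrays of each treatment. Genes near background have differences that the floor and the background correction limit.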
